A study of Drosophila ananassae and Drosophila erecta and Drosophila sechellia with 40 samples.

Results

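Cytochrome P450 genes were followed in the developing and adult antenna of 6 Drosophila species. They were chosen by name: every row of the 4 stage tables whose name is Cyp followed by family digits, subfamily letters and a gene digit, with rows that join the names of several paralogs counted once. This gave 68 members, of which 58 carry 1 name and 10 are joined rows holding 24 names, out of 24678 to 25602 rows listed per stage. By P450 family number, 33 belong to the CYP3 clan, 24 to the CYP4 clan, 7 to the mitochondrial clan and 4 to the CYP2 clan.

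The samples were 40 RNA-seq libraries of wild-type D. sechellia and D. erecta, which specialise on particular host plants, and of 3 generalists, namely D. simulans, D. ananassae and the distantly related D. virilis. Each species contributed 2 libraries at each stage. The stages were the antennal disc of the third instar larva (3L), the antennal disc at 8 h (p8) and the antenna at 40 h (p40) after puparium formation, with 10 h and 48 h in the slower D. virilis, and the adult antenna (AA) of males and females about a week or more past eclosion. D. melanogaster (the w1118 strain) entered only as the authors' mean of each stage, so it has no error and no test here. About 70 discs or antennae were pooled per developmental library and about 300 antennae per adult library, each species was represented by 1 strain, and the study calls the 2 libraries of a species and stage biological replicates. With 1 strain per species, p-values measure only the spread between these libraries.

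Cytochrome P450s are haem enzymes that insert 1 oxygen atom into their substrates and take electrons from NADPH cytochrome P450 reductase in the endoplasmic reticulum, or from a ferredoxin in mitochondria. In insects, CYP3 clan enzymes are known mostly for breaking down plant toxins and insecticides, CYP4 clan enzymes for fatty acid, hydrocarbon and odorant substrates, and several CYP2 clan and mitochondrial enzymes for making or inactivating ecdysteroid hormones. In the adult antenna, P450s of the support cells that surround olfactory neurons are regarded as odorant-degrading enzymes, which clear odorants from the fluid bathing the sensory hairs.

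Values are the authors' normalised read counts, which were not divided by transcript length, so levels are compared between species. Rankings of members and clan shares below are of read counts, in which longer transcripts weigh more, and do not give relative transcript numbers. Single library values were recovered from the authors' means, and the library with the larger size factor is given first; the replicate number of each is not known. Between 97.2% and 100% of values above 0 could be resolved into libraries, 18 adult values of 9 members could not, and for those the mean of both libraries is given. The libraries held 1.17e+07 to 2.67e+07 counts at p8 and p40, and 8.43e+06 to 1.86e+07 resolved counts at 3L and AA. A value listed at 0 can be a gene without reads or an ortholog missing from that species' transcriptome, and the tables do not tell these apart.

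Antennal identity was checked with fixed marker lists. The 9 olfactory neuron markers (Orco, the odorant co-receptor, among them) summed to 50479 to 84650 normalised counts in AA of the 5 species, against 402 to 961 in 3L, and 5 support cell markers to 331333 to 959818 in AA. Ir8a was listed at 0 for D. simulans, a10 for D. ananassae and Or22a for D. virilis. The second D. sechellia adult library stood apart: the photoreceptor opsin ninaE had 147 and 18752 normalised counts in the 2 D. sechellia libraries, and the 5 eye markers summed to 20338 in the D. sechellia mean, against 141 to 607 in the other 4 species. In 3L, 8 fat body markers summed to 40540 for D. simulans and 80675 for D. ananassae, against 7032 for D. sechellia, 3694 for D. erecta and 1922 for D. virilis. Muscle markers in p40 summed to 36127 for D. sechellia and 21608 for D. erecta, against 15088 for D. simulans, and in AA to 4190 and 10151, against 1575. The part these other tissues have in the P450 values was not tested. In these bulk samples, fewer cells of a type and less RNA per cell cannot be told apart.

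P450 transcripts were most abundant in the adult antenna of every species. The 68 members together made up 5838 to 24533 CPM (normalised counts on a per-million scale of the column total) in AA of the 5 species with libraries, against 252 to 552 CPM in 3L, 657 to 2916 in p8 and 287 to 1626 in p40. The D. melanogaster means gave 531 CPM in 3L, 808 in p8, 2065 in p40 and 12675 in AA. The adult share was 20.9 times the larval one for D. sechellia, 34.5 times for D. erecta, 42.7 times for D. simulans, 23.1 times for D. ananassae, 97.5 times for D. virilis and 23.8 times for D. melanogaster. The stages were normalised separately, so stage is described in CPM and was not tested.

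**Figure D1:**
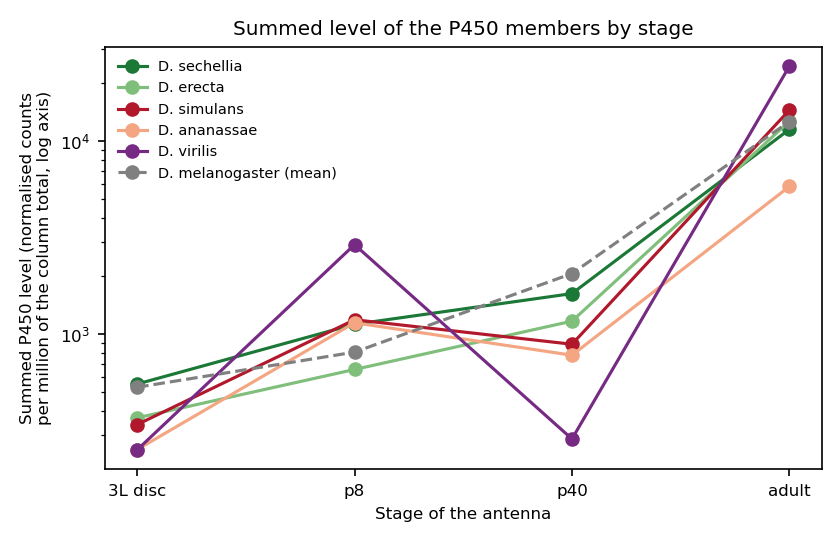
Summed normalised counts of the 68 P450 members, in CPM, which is per-million of the column total (log axis), at 3L, p8, p40 and AA in the 6 species. Each marker is the mean of a species at a stage. Every species has its highest sum in AA, between 5838 and 24533 CPM in the 5 species with libraries, and D. virilis has both the highest p8 sum (2916) and the lowest p40 sum (287).

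More members were in use in the adult as well. Members with at least 30 normalised counts numbered 16 to 30 per species in 3L, 22 to 32 in p8, 26 to 37 in p40 and 42 to 50 in AA. By the stage of the highest level in CPM, most often found over species, 47 members peaked in AA, 9 in p40, 5 in 3L and 2 in p8, with 3 tied and 2 that never reached 30. Within a species, 71.7% to 80.0% of members at 30 or more peaked in AA, beside 32.4% to 37.9% of all genes. For 35 of 66 members the peak was in AA in every species that had at least 30. Some of them reached 30 in few species, such as Cyp6a19 in D. melanogaster alone, and the share over all genes was not computed.

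The clans held different shares of the P450 counts at different stages. CYP3 clan members held 61.9% to 78.6% of the P450 counts in 3L and 67.9% to 90.6% in AA. CYP2 clan members, which here are Cyp18a1, Cyp303a1, Cyp304a1 and Cyp305a1, held 22.3% to 85.9% in p8, but 0.0690% to 0.329% in AA. They led in p8 for D. sechellia (46.0%), D. simulans (64.5%) and D. virilis (85.9%), whereas the CYP3 clan led there for D. erecta (63.7%), D. ananassae (62.4%) and D. melanogaster (58.6%). The mitochondrial clan reached 21.7% to 58.5% in p40, mostly Cyp301a1 and Cyp49a1, and led for D. sechellia, D. erecta, D. simulans and D. melanogaster. In D. ananassae the CYP2 clan led in p40 (51.9%), and in D. virilis the CYP3 clan (39.0%).

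In the adult antenna the largest mean counts over the 5 species belonged to Cyp6w1, Cyp6g1, Cyp6a8/6a18, Cyp6a20, Cyp6a2 and Cyp4e1/Cyp4e2/Cyp4e3. Cyp6g1, known for D. melanogaster for DDT resistance, had means of 53601 for D. sechellia, 41238 for D. erecta, 31422 for D. ananassae, 38602 for D. virilis and 40216 for D. melanogaster. It was listed at 0 in D. simulans at all 4 stages. Cyp6w1 ranged more widely, with means of 23572 for D. sechellia, 64129 for D. simulans, 194223 for D. virilis and 31984 for D. melanogaster, 5864 and 5093 in the D. ananassae libraries, and 0 for D. erecta.

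Cyp6a20, which for D. melanogaster acts in support cells of trichoid sensilla and lowers male aggression, had means of 35084 for D. erecta, 29271 for D. simulans and 30233 for D. melanogaster, and 7062 and 6258 in the D. ananassae libraries. D. sechellia and D. virilis were listed at 0 for it at every stage. Cyp6a8/6a18 had means of 24768 for D. sechellia, 21098 for D. erecta, 36927 for D. simulans and 5695 for D. melanogaster, with 2996 and 3482 for D. ananassae and 0 for D. virilis. Cyp6a2, a xenobiotic-metabolising enzyme, had a mean of 15458 in D. sechellia, library values of 15336 and 16743 in D. erecta, and a mean of 28500 in D. simulans. It was lower outside these 3 species, at 4231 and 3635 for D. ananassae, 2749 and 2633 for D. virilis and a mean of 2917 for D. melanogaster. Because library values of these members could not be resolved in 1 or both species, or a species was listed at 0, no adult contrast to D. simulans was tested for Cyp6w1, Cyp6g1, Cyp6a8/6a18, Cyp6a20 or Cyp6a2.

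Other adult members were shared more evenly. Cyp6t3, which takes part in ecdysone synthesis in the D. melanogaster prothoracic gland, had adult library values from 2436 in D. ananassae to 7408 in D. erecta, with the libraries of D. sechellia (5289 and 6182), D. simulans (6203 and 6016) and D. erecta (7408 and 6060) close together. Cyp9f2 had 18970 and 18317 in D. erecta, against 5243 and 6127 in D. simulans. The 4 members with values above 0 in all 24 means and the smallest adult differences between species were Cyp6u1, Cyp12a4/12a5, Cyp6t3 and Cyp9f2.

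**Figure D2:**
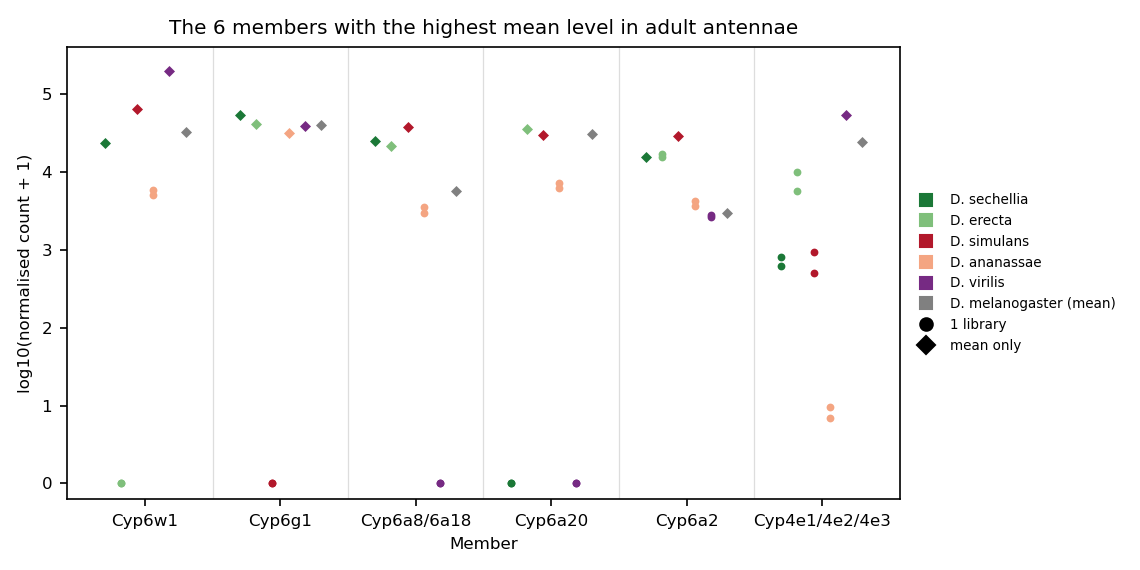
Adult levels, as log10 of normalised counts plus 1, of the 6 P450 members with the largest means, by species. Circles are single libraries and diamonds are means whose libraries could not be resolved or, for D. melanogaster, were not separate. Cyp6w1 lies between 5093 and 194223 where it is above 0, while the means of Cyp6g1 lie between 31422 and 53601 in the species above 0.

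In pupae a different group was prominent. Cyp303a1, which is needed for the development of sensory bristles for D. melanogaster, had 6129 and 7142 normalised counts in p8 of D. sechellia, 996 and 967 for D. erecta, 8335 and 10292 for D. simulans and 44540 and 35954 for D. virilis. D. ananassae was the low species, with 10.2 and 1.79 in p8, and reached 1546 and 42.8 in its p40 libraries. The p40 libraries of D. sechellia (306.998 and 3346) and D. simulans (181 and 459) were also far apart, so no order of species can be read from p40. In the adult it was at 101 and 75.8 for D. sechellia, 0 and 2.3 for D. erecta and 87.4 and 97.4 for D. simulans.

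Cyp18a1, the ecdysteroid 26-hydroxylase that inactivates the moulting hormone, was high at both pupal times. In p8 it had 2548 and 1782 normalised counts for D. sechellia, 1397 and 1306 for D. erecta, 4896 and 4560 for D. simulans, 4326 and 4692 for D. ananassae and 878 and 1180 for D. virilis. Both specialists lay below all D. simulans libraries, with log2 fold changes of -1.15 (SE 0.18, limma adjusted p = 0.00065) in D. sechellia and -1.81 in D. erecta. In the adult it was at 4.45 and 5.94 for D. sechellia, 13.8 in each D. erecta library and 5.1 and 5.57 for D. simulans, and remained at 347 and 275 for D. virilis.

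Cyp301a1, a mitochondrial enzyme needed for cuticle formation for D. melanogaster, had 11716 and 9068 normalised counts in p40 of D. sechellia, 6696 and 6871 for D. erecta, 2757 and 4181 for D. simulans, 595 and 2519 for D. ananassae and 787 and 489 for D. virilis. Cyp49a1 of the same clan had 5151 and 4747 for D. sechellia, 2281 and 2044 for D. erecta, 1706 and 1991 for D. simulans, 912 and 885 for D. ananassae and 49.4 and 38.4 for D. virilis. Cyp6u1 followed the same order, with 2955 and 2754 for D. sechellia, 2474 and 2442 for D. erecta, 1021 and 1189 for D. simulans, 568 and 938 for D. ananassae and 210 and 141 for D. virilis. All 3 thus had their highest p40 mean in D. sechellia and their lowest in D. virilis, which was collected at 48 h. Cyp49a1 and Cyp6u1 were higher in D. sechellia than in D. simulans by the limma test, by 1.42 and 1.37 on the log2 scale, whereas Cyp301a1 did not pass it. The 2 D. ananassae p40 libraries were the least alike of all pairs for P450s, with 9 of 24 members at 30 or more differing over 2-fold.

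Cyp310a1 had its highest level in p8 in every species but D. ananassae, at 1064 and 869 for D. sechellia, 823 and 868 for D. erecta, 504 and 535 for D. simulans and 1742 and 1508 for D. virilis. D. ananassae had 82.6 and 68.8 in p8 and its highest level in 3L, at 179 and 159. Cyp6a17/6a23, of which Cyp6a17 sets temperature preference for D. melanogaster, had 743 and 488 normalised counts in p8 of D. sechellia, 1570 and 1461 for D. erecta and 1004 and 710 for D. simulans. D. erecta thus lay above the D. simulans libraries, and the 2 remaining species were far lower, with 75.8 and 59 in D. ananassae, while D. virilis had 6.49 and 5.08.

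In the larval disc the largest counts, averaged over the 5 species with library values, belonged to Cyp9c1, Cyp9h1, Cyp6v1, Cyp6g2, Cyp310a1 and Cyp6u1. Cyp9h1 owed its place to D. sechellia (mean 2443) and D. erecta (617), beside 3.54 in D. simulans, 9.26 in D. ananassae and 0 in D. virilis. Cyp9c1 had its highest level in 3L in all 6 species, with 600 and 672 normalised counts for D. sechellia, 467 and 484 for D. erecta, 524 and 588 for D. simulans, 1048 and 928 for D. ananassae and 751 and 688 for D. virilis. Cyp6v1 was at 733 and 787 for D. sechellia, 569 and 632 for D. erecta, 792 and 761 for D. simulans, 474 and 440 for D. ananassae and 398 and 380 for D. virilis. Cyp6g2 was low for D. virilis, at 18.3 and 8, against 420 and 271 for D. sechellia, 278 and 304.96 for D. erecta, 750 and 916 for D. simulans and 409 and 261 for D. ananassae.

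The first comparison set the noni specialist D. sechellia against its close generalist relative D. simulans. Of the members that were above 0 in both species with both libraries resolved, 19 of 53 differed in 3L, 20 of 52 in p8, 16 of 53 in p40 and 21 of 53 in AA (limma, adjusted p under 0.05). The same rule called 45.2% of all genes in 3L, 45.1% in p8, 39% in p40 and 43.5% in AA, and the members' shares (35.8%, 38.5%, 30.2% and 39.6%) were all below these. In 3L 9 were higher and 10 lower in D. sechellia, in p8 15 and 5, in p40 10 and 6, and in AA 12 and 9. Over all genes 23.3% were called higher and 21.9% lower in 3L, 22.8% and 22.2% in p8, 20.8% and 18.2% in p40, and 22.1% and 21.4% in AA. The median log2 fold change in p8 was 0.57 over the members tested and 0.04 over all genes. Muscle markers were higher in the same D. sechellia p8 libraries in 5 of 6 tested, Mhc among them at 1262 and 1549, against 8.39 and 7.61 in D. simulans, and their part in the P450 counts was not tested. The counts of higher members depend on single libraries: without the first D. sechellia library in 3L they were 4 higher and 9 lower, without the first D. simulans library in 3L 5 higher and 11 lower, without either D. sechellia library in p40 6 higher and 5 lower, and without the D. sechellia adult library that held the eye markers, 7 higher and 9 lower. The number higher also fell without the second D. simulans adult library. In that library larval serum and fat body genes stood higher (Fbp1 36.4 and 921). The 8 fat body markers nevertheless summed to less in AA of D. simulans (3375, with 1 marker listed at 0) than of D. sechellia (13652). The total called in AA fell whichever library of either species was left out, not only without those holding eye or fat body genes.

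Cyp9h1 had the largest difference at 3 stages. Its 3L values were 2487 and 2399 normalised counts in D. sechellia, against 3.14 and 3.94 in D. simulans, a log2 fold change of 9.08 (SE 0.25, adjusted p = 1.8e-09). In p8 it was at 1188 and 1224 in D. sechellia, while both D. simulans libraries were at 0 and no fold is given. In p40 D. sechellia had 745 and 740, against 0 and 5.44 in D. simulans, and in AA 810 and 899, against 3.83 and 7.42. The libraries did not overlap at any stage. D. erecta was also high, with 640 and 593 in 3L and 416 and 483 in AA, and the D. melanogaster mean was 10 in 3L and 608 in AA.

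Cyp308a1 followed Cyp9h1 in the larval disc but not in the adult. In 3L it had 1004 and 642 normalised counts for D. sechellia, against 1.57 and 1.97 for D. simulans (log2 fold change 8.18, SE 0.34, adjusted p = 1.2e-07), and it remained higher for D. sechellia in p8 (51.8 and 62.5, against 1.4 and 0) and p40 (27.9 and 46.4, against 0 and 2.72). The adult libraries were at 4796 and 4054 in D. sechellia, against 4808 and 5344 in D. simulans, and no difference was called. Cyp4d21, known as sxe1 for D. melanogaster, where it is expressed in a sex-specific way, was present for D. sechellia larval discs at 659 and 555 and listed at 0 for D. simulans. It was higher in D. sechellia in p40, at 97.7 and 111, against 0 and 2.72, and in AA, at 2935 and 2178, against 674 and 891 (log2 fold changes 5.77 and 1.71).

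Cyp6a13 had the largest difference among the members tested in p8, with 1323 and 1912 normalised counts in D. sechellia, against 21 and 19.8 in D. simulans (log2 fold change 6.22, SE 0.54, adjusted p = 1.4e-05). Cyp311a1 was higher at the same stage, at 42.6 and 54.2 in D. sechellia, against 1.4 and 2.28. In AA, Cyp4ac1/Cyp4ac2/Cyp4ac3 had 427 and 2285 in D. sechellia, against 13.4 and 24.1 in D. simulans (log2 fold change 5.70, SE 0.66, adjusted p = 0.00021). The higher of those 2 values is from the library with eye markers, and without it the log2 fold change was 4.49 and still called. Cyp4c3 differed between the D. sechellia libraries in the same way, at 8.34 and 83.2, and was not called. Cyp4ad1 was higher in 3L, at 24.4 and 23.7, against 0 and 1.97 (log2 fold change 3.86, SE 1.13, adjusted p = 0.019), but the call was lost without the first D. simulans library, without either D. sechellia library, or with another model.

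Among the members lower in D. sechellia, Cyp4d1 was the only one called at all 4 stages, of 42 members tested at all 4. Counting both directions it was also the only member so called (2.38%), beside 15.7% of all genes. It had 2.86 and 10.4 normalised counts in 3L of D. sechellia, against 122 and 218 in D. simulans, and 2.22 and 10.4 in AA, against 77.8 and 98.3. The log2 fold changes were -4.63 in 3L, -4.03 in p8, -4.33 in p40 and -3.87 in AA. At each stage D. simulans stood above every other species for Cyp4d1, the generalists included. In 3L it was at 10.7 CPM, against 0 in D. ananassae, 0.806 in D. virilis and 0.902 in D. melanogaster. In AA it was at 5.55 CPM, against 0.0597, 1.58 and 0.920 in the same order. In 3L, Cyp309a2 was at 1.43 and 0, against 31.4 and 88.7 (log2 fold change -5.11, SE 0.69, adjusted p = 0.00022), and Cyp6t3 at 2.86 and 2.96, against 83.2 and 88.7 (-4.47, SE 0.45, adjusted p = 1.5e-05). Fat body markers moved in the same libraries: of 6 tested, 3 were lower and 1 higher for D. sechellia, Fbp1 had 965 and 5361 for D. sechellia, against 10776 and 20917, and Yp3 was listed at 0 for D. simulans. Their part in the lower P450 values was not tested.

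In p40, Cyp6a2 was at 15.7 and 20.9 in D. sechellia, against 443 and 1014 in D. simulans (log2 fold change -5.13, SE 0.61, adjusted p = 0.00031), and Cyp317a1 at 12.2 and 11.6, against 109 and 167 (-3.40, SE 0.44). For Cyp6a2, D. simulans alone was high in p40, at 45.1 CPM, against 1.10 to 4.71 CPM in all other species. In AA, Cyp6t1 was at 2.22 and 0, against 8.93 and 9.28 (-2.49, SE 0.50), and at -1.65 without the second D. sechellia library. Cyp309a2 in p8 (-2.00, SE 0.57, adjusted p = 0.018) lost its call without the first D. sechellia or the second D. simulans library. Cyp4aa1 in AA, at 0 and 4.46, against 21.7 and 10.2 (-2.77, SE 0.96, adjusted p = 0.043), lost it without the first D. sechellia library or either D. simulans library, and under other models, with -1.55 the smallest value.

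**Figure D3:**
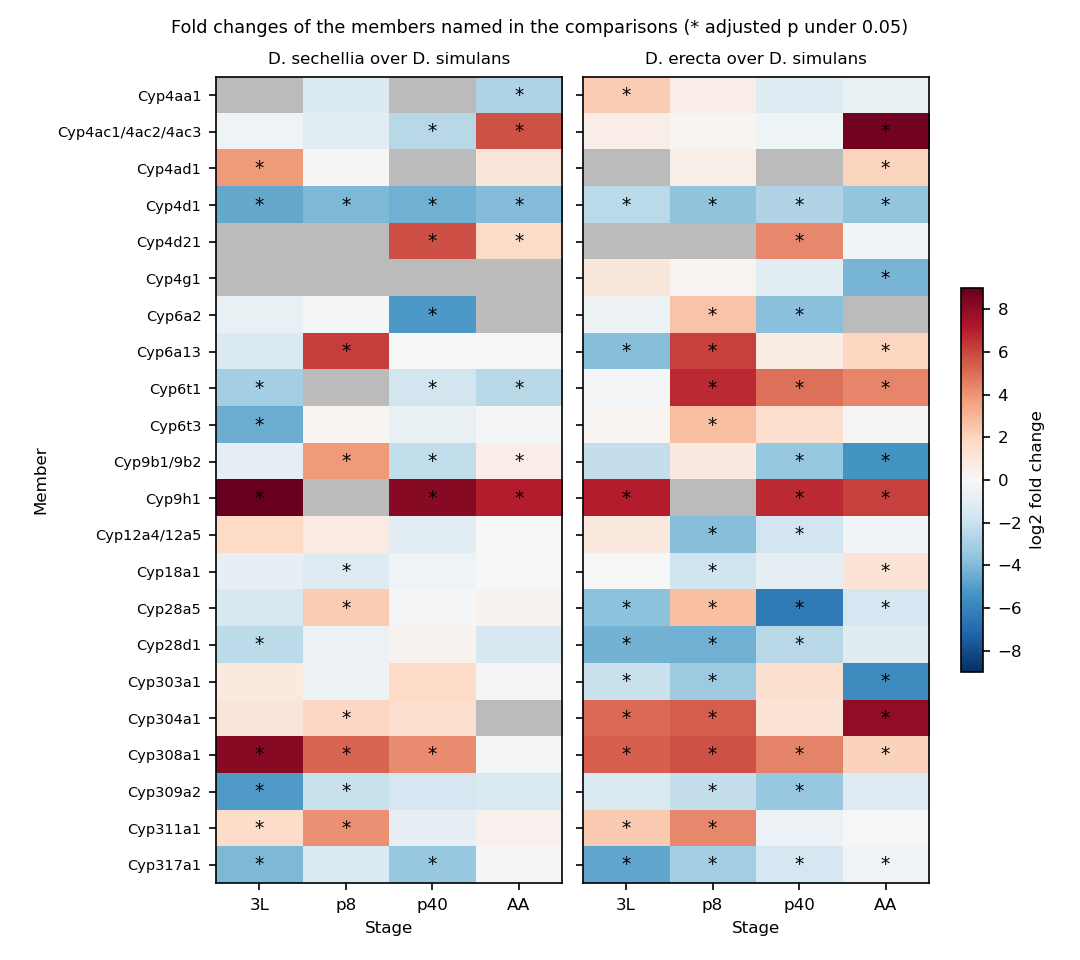
Log2 fold changes of D. sechellia over D. simulans and of D. erecta over D. simulans at the 4 stages for 22 P450 members. Colour gives the log2 fold change of normalised counts plus 1, stars mark a limma adjusted p under 0.05, and grey cells were not tested. Cyp9h1 reaches 9.08 in D. sechellia and 7.09 in D. erecta in 3L, and Cyp4d1 is below 0 with a star in all 8 cells. Both contrasts use the same D. simulans libraries.

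The second comparison set the screw pine specialist D. erecta against the same D. simulans libraries. It called 27 of 54 members tested in 3L, 26 of 56 in p8, 28 of 58 in p40 and 38 of 57 in AA, where the share of all genes called was 53.8%, 52.7%, 44% and 55.7%, in stage order, beside 50.0%, 46.4%, 48.3% and 66.7% of the members tested. In 3L 10 were higher and 17 lower in D. erecta, in p8 13 and 13, in p40 12 and 16, and in AA 17 and 21. Over all genes 28.1% were called higher and 25.7% lower in 3L, 27.4% and 25.3% in p8, 22.6% and 21.4% in p40, and 28.9% and 26.8% in AA, where 29.8% of members tested were higher and 36.8% lower. Without the first D. erecta library in 3L the counts were 9 higher and 10 lower, without the first D. simulans library in p8 13 higher and 8 lower, and without the second 12 higher and 8 lower. The contrasts share their D. simulans libraries, so a D. simulans value that stands apart moves both, and no overlap between them is given.

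Cyp9h1, Cyp308a1 and Cyp304a1 had the largest differences in 3L. Cyp9h1 was at 640 and 593 normalised counts in D. erecta, against 3.14 and 3.94 in D. simulans (log2 fold change 7.09, SE 0.25, adjusted p = 8e-09). Cyp308a1 was at 103 and 124, against 1.57 and 1.97 (5.37, SE 0.34, adjusted p = 2e-06), and unlike in D. sechellia it was also higher in AA, at 20761 and 22913, against 4808 and 5344. The difference between the contrasts was not tested. Cyp304a1 of the CYP2 clan was at 338 and 422 in 3L, against 12.6 and 7.89, at 299 and 250 in p8, against 2.8 and 9.14, and at 883 and 474 in AA, against 1.28 and 1.86 (7.99, SE 0.62, adjusted p = 1.5e-05).

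Cyp6t1 was high in D. erecta from the pupa on. It had 500 and 583 normalised counts in p8, against 2.1 and 7.61 in D. simulans (log2 fold change 6.71, SE 0.56, adjusted p = 2.1e-05), 760 and 717 in p40, against 20.7 and 24.5 (4.98), and 212 and 216 in AA, against 8.93 and 9.28 (4.41). In 3L the libraries of the 2 species overlapped, at 17.5 and 11, against 14.1 and 17.7. Cyp4ac1/Cyp4ac2/Cyp4ac3 had the largest adult difference, at 7586 and 8106 in D. erecta, against 13.4 and 24.1 (8.69, SE 0.66, adjusted p = 1.3e-05). D. ananassae (997 and 724) and the D. melanogaster mean (3099) lay between, and D. virilis was listed at 0. Cyp6a17/6a23 was called higher at all 4 stages, and in AA was at 2778 and 2858, against 397 and 393.

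Cyp317a1, Cyp4d1 and Cyp4d14 were lower in D. erecta at all 4 stages, and Cyp28d1 in 3L, p8 and p40. For Cyp4d1, as given above, D. simulans stood above every other species at each stage. In 3L Cyp317a1 had 3.5 and 1.83 normalised counts in D. erecta, against 85.6 and 95.7 in D. simulans (log2 fold change -4.68, SE 0.97, adjusted p = 0.002), and Cyp28d1 had 5.25 and 3.65, against 94.2 and 106 (-4.23, SE 0.58). D. simulans alone was high for Cyp28d1 in 3L, at 6.32 CPM, against 1.28 CPM or less in all other species. Cyp28d1 was again lower in D. erecta in p8, at 3.98 and 3.1, against 85.3 and 89.9 (-4.29), as was Cyp12a4/12a5, at 25.9 and 14.5, against 283 and 287 (-3.81, SE 0.48). Fat body markers went both ways in 3L, with 3 of 6 tested lower in D. erecta and 2 higher. Among them Fbp1 had 1349 and 1417 in D. erecta, against 10776 and 20917 in D. simulans. The part of these markers in the P450 values was not tested.

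In p40 Cyp28a5 had 7.97 and 8.52 normalised counts in D. erecta, against 703 and 785 in D. simulans (log2 fold change -6.33, SE 0.40, adjusted p = 7.9e-06), while D. sechellia had 712 and 580. Cyp6a2, high in p40 in D. simulans alone, was lower in D. erecta, at 36.7 and 66.4, against 443 and 1014 (-3.74, SE 0.61). So was Cyp309a2, at 4.78 and 11.9, against 160 and 51.6 (-3.41, SE 0.66). In AA, Cyp9b1/9b2 had 32.2 and 43.7, against 1478 and 1747 (-5.38, SE 0.18, adjusted p = 5.9e-08), and Cyp303a1 0 and 2.3, against 87.4 and 97.4 (-5.68, SE 0.96). Cyp4g1, the oenocyte enzyme that makes cuticular hydrocarbons, had 4.6 in each D. erecta library, against 464 and 22.3 in D. simulans (-4.22, SE 1.26, adjusted p = 0.021), and without the first D. simulans library it was at -2.05 with an adjusted p of 0.11. Its call was also lost without either D. erecta library and under other models.

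Called at all 4 stages in D. erecta were Cyp28a5, Cyp308a1, Cyp310a1, Cyp317a1, Cyp4d1, Cyp4d14 and Cyp6a17/6a23, which is 7 of 49 members tested at all 4 (14.3%), beside 19.4% of all genes. Cyp308a1 and Cyp6a17/6a23 were higher and Cyp317a1, Cyp4d1 and Cyp4d14 lower at each stage. The other 2 changed direction, with log2 fold changes in stage order of -3.71, 2.72, -6.33 and -1.53 for Cyp28a5 and 0.99, 0.70, -2.10 and -2.74 for Cyp310a1. Of members called at 2 or more stages, 14 of 37 in D. erecta (37.8%) and 6 of 23 in D. sechellia (26.1%) were called in both directions, beside 23.1% and 16.4% of all genes. Cyp6a13 was 1 of them. In D. erecta it had 1.75 and 1.83 normalised counts in 3L, against 23.5 and 63.1 in D. simulans, then 1385 and 1625 in p8, against 21 and 19.8, and 1520 and 1594 in AA, against 453 and 354. D. ananassae was higher still in p8, at 12410 and 9825, and D. virilis was at 0 and 3.38.

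**Figure D4:**
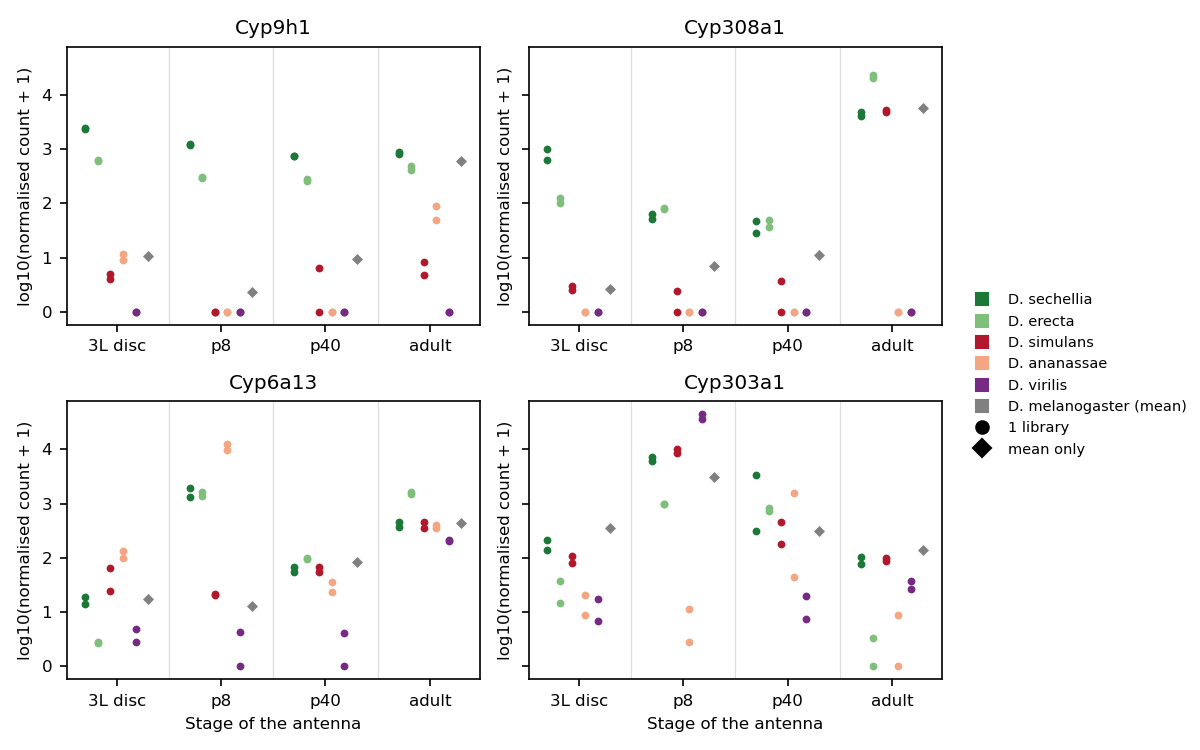
Levels through 3L, p8, p40 and AA, as log10 of normalised counts plus 1, of Cyp9h1, Cyp308a1, Cyp6a13 and Cyp303a1. Circles are single libraries and diamonds are means. Cyp9h1 lies at 416 or more in AA of D. sechellia and D. erecta, against 7.42 or less in D. simulans, and Cyp6a13 reaches 1323 or more in p8 of D. sechellia, D. erecta and D. ananassae only.

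Over the 5 species together, the moderated F test (limma, adjusted p under 0.05) called 29 of 35 members tested in 3L, 33 of 39 in p8, 35 of 41 in p40 and 39 of 40 in AA. It called 90.7% of all genes tested in 3L, 88.4% in p8, 88% in p40 and 92.9% in AA, so nearly every gene differed and the members' counts were near the background. Cyp4p1/Cyp4p2/Cyp4p3 was the adult member not called (adjusted p = 0.089). Cyp4g15, which in D. melanogaster is expressed in the nervous system, was not called at the 3 developmental stages.

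The size of the differences was measured as the mean absolute log2 fold change over the 15 species pairs (ALFC, in means plus 1), with a value of 0 left out as missing and members kept at 30 or more in some species. Its median over the members was 1.98 in 3L (51 members), 1.95 in p8 (52), 1.83 in p40 (55) and 1.79 in AA (63). Over all genes kept by the same rule the medians were 0.771, 0.896, 0.893 and 0.900. A gene can be kept by the 1 species in which it is high, so these medians are a description. Among members above 50 in all species, which does not select in that way, the medians were smaller, at 0.80 in 3L (6 members), 1.28 in p8 (7), 1.19 in p40 (8) and 1.18 in AA (26), beside 0.529, 0.669, 0.654 and 0.656 for all genes.

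**Figure D5:**
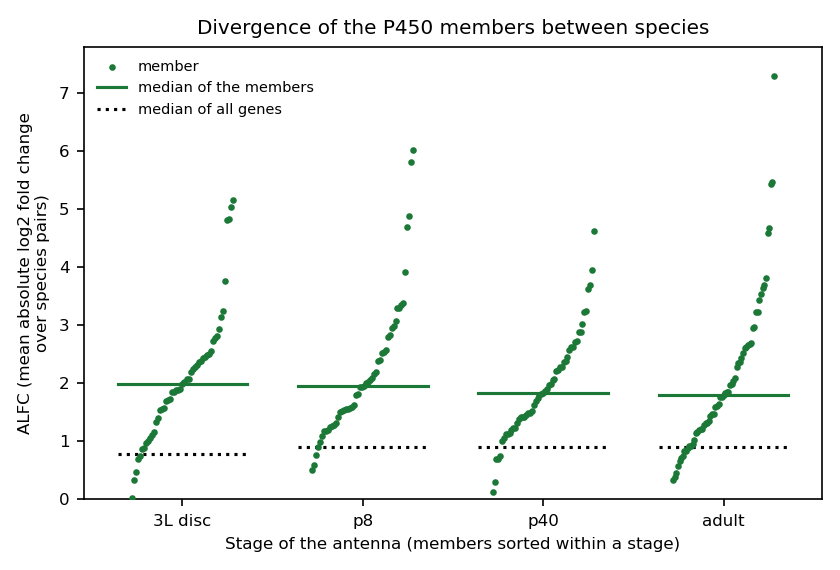
ALFC, the mean absolute log2 fold change over species pairs, of the P450 members at each stage. Green dots are members, the solid green line is their median and the dotted black line the median of all genes kept by the same rule. Members' medians run from 1.79 in AA to 1.98 in 3L, beside 0.771 to 0.900 for all genes, and the highest adult dot is Cyp313a1/Cyp313a2/Cyp313a3 at 7.31.

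In AA the largest ALFC were those of Cyp313a1/Cyp313a2/Cyp313a3 (7.31), Cyp4e1/Cyp4e2/Cyp4e3 (5.47), Cyp309a1 (5.44), Cyp304a1 (4.67), Cyp6d2 (4.59) and Cyp4ac1/Cyp4ac2/Cyp4ac3 (3.82). Their levels ran from a few counts or 0 in some species to far higher in others. Pairs with a species at 0 are left out, so Cyp313a1/Cyp313a2/Cyp313a3 and Cyp304a1 rest on the pairs of 4 species. The ranking thus sets unlike sets of pairs side by side. Cyp313a1/Cyp313a2/Cyp313a3 had a mean of 15642 in D. melanogaster, against 191 in each D. erecta library and 3.83 or less in D. sechellia and D. simulans. Cyp4e1/Cyp4e2/Cyp4e3 had 10050 and 5681 for D. erecta and means of 52946 for D. virilis and 24127 for D. melanogaster, but 6.02 and 8.48 for D. ananassae, and Cyp309a1 had 3714 and 4290 for D. virilis and 768 and 937 for D. ananassae, but at most 17.1 in the other species. Such joined rows can hold reads of near-identical paralogs, and how reads were divided between them is uncertain. The D. melanogaster value of a joined row is that of its highest single name, here Cyp313a1 and Cyp4e2. In 3L the largest were Cyp4d21 (5.17), Cyp308a1 (5.03), Cyp6a14 (4.84), Cyp9h1 (4.81), Cyp313a1/Cyp313a2/Cyp313a3 (3.76) and Cyp4s3 (3.25). Of these, Cyp4d21 was above 0 in 3 species, Cyp9h1 in 5 and the others in 4. Cyp6a14 was at 1047 in the D. melanogaster mean, against 67.8 and 10.5 in D. ananassae and 6 or less in the other 4 species, and Cyp4s3 at 239 and 73.8 in D. ananassae, against at most 5.2 elsewhere. The smallest adult ALFC among members above 0 in all 24 means were those of Cyp6u1 (0.383), Cyp12a4/12a5 (0.449), Cyp6t3 (0.576) and Cyp9f2 (0.713).

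Some members were listed at 0 in whole species. The share of all genes at 0 at every stage was not computed, so these counts are not a trait of P450s. In AA, 55 to 63 of the 68 members were above 0 in the 5 species with libraries, beside 12886 to 14613 of the 25214 rows listed. Rows are named by D. melanogaster ortholog, so the species do not stand alike in such counts. At all 4 stages 7 members were at 0 for D. sechellia, 4 for D. erecta, 7 for D. simulans, 8 for D. ananassae, 13 for D. virilis and 0 for D. melanogaster, and 20 members were at 0 throughout in at least 1 of the 5 species. Members above 0 in all 24 means numbered 29. In AA, the members above 30 in some species and listed at 0 in exactly 1 were Cyp4g1, Cyp6d2 and Cyp6d4 for D. sechellia, Cyp6w1 for D. erecta, Cyp4s3, Cyp6g1 and Cyp309a1 for D. simulans, Cyp316a1 and Cyp318a1 for D. ananassae, and Cyp4ac1/Cyp4ac2/Cyp4ac3, Cyp6a8/6a18, Cyp9h1 and Cyp28d1 for D. virilis. Several were abundant elsewhere, such as Cyp6d4, with 1041 and 885 in D. ananassae, and Cyp4s3 at 1357 and 1686 in D. virilis. Cyp6a16 and Cyp6a19 were above 0 only in D. melanogaster, at 2.74 and 146 in AA.

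Several P450s that act in ecdysone synthesis carry other names and are not members. Of the 8 P450s listed under other names 6 were found. The names nompH and sxe1 were not, which does not show that the genes are absent, since sxe1 is the member Cyp4d21. Among those found, spo and spok, which act at an early step, share 1 joined row. That row had 3064 and 2715 normalised counts in adult antennae of D. sechellia and 1440 and 1364 in D. erecta, against 12.8 and 14.8 in D. simulans. The log2 fold changes in AA were 7.61 in D. sechellia (SE 0.67, adjusted p = 1.9e-05) and 6.57 in D. erecta (SE 0.67, adjusted p = 3.8e-05), and the row was also higher in both at the other 3 stages. The D. melanogaster means in AA were 22.6 for spo and 4.29 for spok. In contrast dib, which acts later in the pathway, was lower for D. sechellia at all 4 stages, with 1.11 and 7.43 in AA, against 305.6 and 317.3 (-6.21, SE 0.80). phm was listed at 0 for D. sechellia and D. simulans at every stage, and sad was lower in both specialists in 3L, with D. sechellia at 1974 and 1314 and D. erecta at 845 and 1326, against 5759 and 4010 in D. simulans.

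The partners that supply electrons and haem also had their highest summed levels in the adult. The 7 redox partners found summed to 20202 to 30180 normalised counts in AA of the 5 species, against 2900 to 6178 at the earlier stages, and 7 haem pathway genes to 14232 to 20143 in AA, against 5348 to 8915. Cpr, the NADPH cytochrome P450 reductase, was the low one in D. simulans. In 3L D. sechellia had 2186 and 2216 and D. erecta 2447 and 2436, against 313.2 and 232 for D. simulans (log2 fold changes 3.03 and 3.18, SE 0.12 each), and in AA 13209 and 14240 for D. erecta, against 4247 and 3077. The ferredoxins were listed under different names: Fdxh was at 0 in D. simulans and D. ananassae, and Fdx1 and Fdx2 at 0 in the other 4 species, so they were not compared.

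Of 9 regulators of xenobiotic response and juvenile hormone reception, 8 were tested in AA. The 4 called for D. sechellia and the 5 called for D. erecta by the same limma rule were all lower than for D. simulans. Over all genes 21.4% and 26.8% were called lower in AA. The 9 regulators summed highest in D. simulans in AA, at 31737 normalised counts, against 16694 in D. sechellia and 19043 in D. erecta. D. ananassae (22998), D. virilis (17666) and D. melanogaster (17869) were also below D. simulans. The lower direction in the specialists did not hold at every stage. Of 9 tested, D. sechellia had 3 higher and 4 lower in 3L, 0 and 4 in p8, and 2 and 1 in p40. D. erecta had 4 higher and 3 lower in 3L, 1 and 4 in p8, and 2 and 3 in p40. cnc, the Nrf2 homolog that induces detoxification genes, had 2428 and 2354 normalised counts in AA of D. sechellia and 4280 and 4367 for D. erecta, against 9028 and 10155 for D. simulans. The log2 fold changes were -2.00 and -1.15, and those of Met, a juvenile hormone receptor, -1.69 and -1.63. Of the haem genes, 5 were higher and 1 lower in D. sechellia in AA, and 1 higher and 4 lower in D. erecta, of 7 tested.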

How the data were processed

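RNA was made into stranded, poly(A)-selected libraries and sequenced as paired ends. Reads were aligned by the authors against the FlyBase transcriptome of the species they came from (BWA 0.7.8, after CASAVA 1.8). The authors then named rows by D. melanogaster ortholog, kept the highest transcript where several matched, normalised counts by DESeq2 size factors within each stage, and deposited 24 means, 1 per species and stage, as a normalised signal. How near-identical paralogs were handled in counting is not given in the sources used here. Unused columns of sample values numbered 0, and D. melanogaster has 4 means and no libraries.

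From these signal values the counts of both libraries were recovered as the single pair of whole counts that gives the mean, with no other pair within 3 times the rounding tolerance. Between 78.3% and 96.5% of recovered counts were even, as when both ends of a read pair are counted. Size factors were 0.702 to 1.80 and column totals 1.33e+07 to 1.83e+07 normalised counts.

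Within each stage, limma 3.58.1 (R 4.3.3) with a mean-variance trend was fitted to log2(normalised count + 1) of all 5 species, so a fold change is on that scale and understates low genes. Benjamini-Hochberg adjustment ran over all genes tested, with a threshold of 0.05. Genes tested were above 0 in the species compared with libraries resolved. Rows were read with Python 3.11.15, pandas 2.3.3 and numpy 2.4.6, and figures drawn with matplotlib 3.10.9. The fit and recovery were tested on simulated data.

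Named were, at each stage, the 6 members with the highest mean, in each contrast the 3 called members with the largest change in each direction without overlapping libraries, the 6 with the highest ALFC in AA and 3L, the 4 with the lowest ALFC in AA among those above 0 throughout, members at 0 in exactly 1 species in AA, and the genes of the lists. Others (Cyp6a17/6a23 in the contrasts, for example) were chosen after their values were seen. The members and lists were chosen with earlier results of these data known. The lists were P450s under other names, redox partners, haem, xenobiotic regulators, and markers of olfactory neurons, support cells, antennal disc, fat body, oenocytes, haemocytes, eye, muscle, salivary gland, and Malpighian tubule and gut. A regulator, ss, is also in the antennal disc list. Alternatives were another pseudocount, filter, model and scaling, and leaving out each library. Genome positions and sequences were not used here.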

Additional observations from a re-analysis of the deposited data

Results flagged for a closer look

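Cyp6a13 was called in opposite directions at different stages in D. erecta over D. simulans, with libraries that did not overlap at any of the 3 stages named. Its log2 fold change was -3.83 in 3L, 6.13 in p8 and 1.96 in AA (limma, 2 libraries per species). The difference between stages was not tested, since the stages were normalised separately.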

How the results depend on the processing

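Single calls were recomputed only for the members named for the largest changes in each contrast and stage. These calls kept their direction in all 514 recomputed values, and 18 lost the threshold, all of Cyp4g1, Cyp4ad1, Cyp309a2 and Cyp4aa1. Calls of other members were not followed singly, and the lower counts called without 1 library, given below, include losses among them. Of the counts and medians, 207 stayed within the limits set and 31 moved. Requiring a mean of 30 gave 18 members called in 3L by the F test, and 11, 12 and 10 for D. sechellia over D. simulans in 3L, p8 and p40. With no filter on low values, which lets species listed at 0 in, the F test called 51, 54 and 53 members in 3L, p8 and p40, and D. sechellia over D. simulans 33 in p8 and 29 in p40. The median ALFC in 3L, p8, p40 and AA was 2.12, 2.13, 1.90 and 1.86 with a pseudocount of 0, and 1.34, 1.36, 1.39 and 1.45 with 10. Among members above 50 in all species it was 0.80, 1.28, 1.19 and 1.18. Without D. virilis it was 1.78, 1.57 and 1.57 in p8, p40 and AA, and without D. melanogaster 1.69 in AA. Leaving out 1 library in turn gave 1.86 to 2.04 in 3L, 1.87 to 1.98 in p8, 1.797 to 1.92 in p40 and 1.75 to 1.83 in AA. It gave F counts of 25 to 29, 31 to 34, 29 to 35 and 36 to 39 in stage order, 13 to 18, 15 to 18, 11 to 16 and 14 to 16 for D. sechellia, and 19 to 24, 20 to 22, 19 to 25 and 30 to 35 for D. erecta; where a species keeps 1 library, it is assumed to vary like the others. By rank within a column 44 members peaked in AA, scaled to genes above 50 at all stages 46, and without D. melanogaster 44. The rule that joined rows take the D. melanogaster paralog with the highest value, or their sum, was compared after seeing the data. The planned edgeR and DESeq2 alternatives were not run, because the deposited values are means and not counts, and limma-voom took their place. No paired analysis was possible because the recovered libraries carry no replicate numbers. Depth limits members under about 30 normalised counts, where 1 read pair moves a fold change.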

Other observations

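The remaining marker lists gave the following values. In AA, 2 oenocyte markers summed to 19703 normalised counts in D. sechellia and to between 32171 and 38350 in the other 4 species with libraries, beside 1231 to 6478 at the earlier stages. Haemocyte markers summed to 2851 in AA of D. sechellia and 409 in D. erecta, against 942 in D. simulans. Salivary gland glue genes summed to 3308 in 3L of D. sechellia and 1993 in D. erecta, against 8335 in D. simulans, and to 101 or less in all 5 species at the later stages. The Malpighian tubule and gut markers stayed at 735 or less in all 5 species. The 9 antennal disc markers summed to 12357 to 25237 in 3L and to 10619 to 25860 in AA, so their sum did not set the disc apart from the adult antenna.

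Among mitochondrial clan members chosen after their values were seen was Cyp12d1-d/12d1-p, an insecticide-inducible enzyme in D. melanogaster. In AA D. sechellia had 1833 and 1927 normalised counts of it and D. erecta 2332 and 2161, against 3137 and 7599 in D. simulans, and a mean of 23292 in D. virilis. It was called lower in both specialists in AA, with log2 fold changes of -1.38 in D. sechellia and -1.12 in D. erecta, though the D. simulans libraries differed over 2-fold. D. ananassae (8.43 CPM) and D. melanogaster (51.0) lay below both D. sechellia (119) and D. erecta (130), so it was not low in the specialists alone. Cyp12c1 was listed at 0 at all 4 stages in D. ananassae and D. virilis and had 655 and 799 in AA of D. sechellia, against 413 and 417 in D. simulans.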
